A study of Mus musculus with 10 samples.

Results

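Testes of mice in which Lsm7 is, by the labels, conditionally knocked out (cKO, 3 libraries) were compared with wild-type testes (WT, 2 libraries) at postnatal day 4 (P4). These 5 libraries were taken by the names of their columns in the count table and are 5 of the 10 in the study. The other 5 came from postnatal day 7 (P7) and entered the model for its estimate of spread. All mice were of the strain C57BL/6. The cKO genotype is given as Lsm7-flfl-stra8, which names floxed Lsm7 alleles and Stra8. The labels name no recombinase and do not say whether the WT mice carried either element. Germ cell is the labelled cell type, but the protocol describes RNA from testis with no sorting step. The labels do not tie libraries to animals or litters, so the p-values rest on the spread among these libraries, and that spread may be technical.

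In the newborn mouse testis the germ line consists of gonocytes and the first spermatogonia, and no germ cell has yet entered meiosis. The germ cells lie in cords of Sertoli cells, wrapped by peritubular myoid cells, with Leydig cells, vessels and macrophages between the cords. LSM7 is a subunit of the ring of LSm proteins, which in the nucleus binds the end of U6 small nuclear RNA and in the cytoplasm acts with the decapping enzymes in mRNA decay. Stra8 is switched on by retinoic acid as spermatogonia differentiate. The title of the series ties LSM7 to the modification of spliceosomal RNAs and to the differentiation of spermatogonial stem cells, and the design asks which genes differ without it.

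The P4 libraries held 28.8 and 33.0 M counted reads in WT and 36.2, 31.4 and 41.8 M in cKO. Levels are given in library order as CPM, counts scaled to 1 M reads after trimmed-mean (TMM) normalization. The Sertoli cell markers, 28 genes, summed to 5868 and 6696 RPM (reads per 1 M of the library, without TMM) in WT and 7752, 7125 and 7661 RPM in cKO, so the libraries held somatic RNA beside that of germ cells. Ddx4, the germ cell RNA helicase, was at 36.6 and 51.9 CPM in WT and 34.4, 32.3 and 39.8 CPM in cKO. One library stood apart: 15 red blood cell genes summed to 102 RPM in cKO library 2 and to between 5.63 and 12.9 RPM in the other 4, although the adult globin genes of that list had no read in any. Lsm7 itself was at 36.2 and 25.7 CPM in WT and 44.9, 50.5 and 43.6 CPM in the libraries labelled cKO (chromosome 10, 80852825 to 80855209, GRCm38, minus strand). Its log2 fold change was 0.58 (SE 0.30, edgeR adjusted p = 0.215), so no loss of Lsm7 reads was detected; 1 of 18 alternatives, the one without P7 cKO library 1, called it higher. The counts are summed over exons and the cells were not sorted, so this value does not check the genotype, and each direction below is that of the libraries labelled cKO.

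Of 18419 genes tested, 891 rose (4.84%) and 760 fell (4.13%) in cKO at P4, by edgeR's quasi-likelihood test with Benjamini-Hochberg adjustment at 0.05. Among the genes that rose, 369 changed more than 2-fold and 22 more than 4-fold. The genes that fell reached further, with 391 beyond 2-fold and 113 beyond 4-fold. In the plot of level against fold change, the rising genes sit mostly at moderate to high levels and the steepest falls at low levels. All 3 cKO libraries lay above both WT libraries for 24.1% of genes tested and below both for 25.6%, and the median of all genes was 0.00. Scaling by library totals alone, which moved that median to -0.16, gave 528 that rose and 1544 that fell. The number of calls depended on single libraries. Without cKO library 2 the counts were 4 and 9 (4410 genes at an unadjusted p under 0.05 by edgeR). Without cKO library 3 they were 2 and 9 (3870 genes). A fit without WT library 1 leaves 1 WT library at P4, so its medians are given for 3 of the lists below. The ribosomal protein median was 0.79 (0.84 with all libraries) and the meiotic median -0.57 (-0.49 with all). The spermatid marker median moved further, to -0.43 (-0.84 with all). Without cKO library 1 the counts of genes that rose and fell were 336 and 234. Without P7 cKO library 1, which lies outside the comparison, they were 2241 and 1916.

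**Figure D1:**
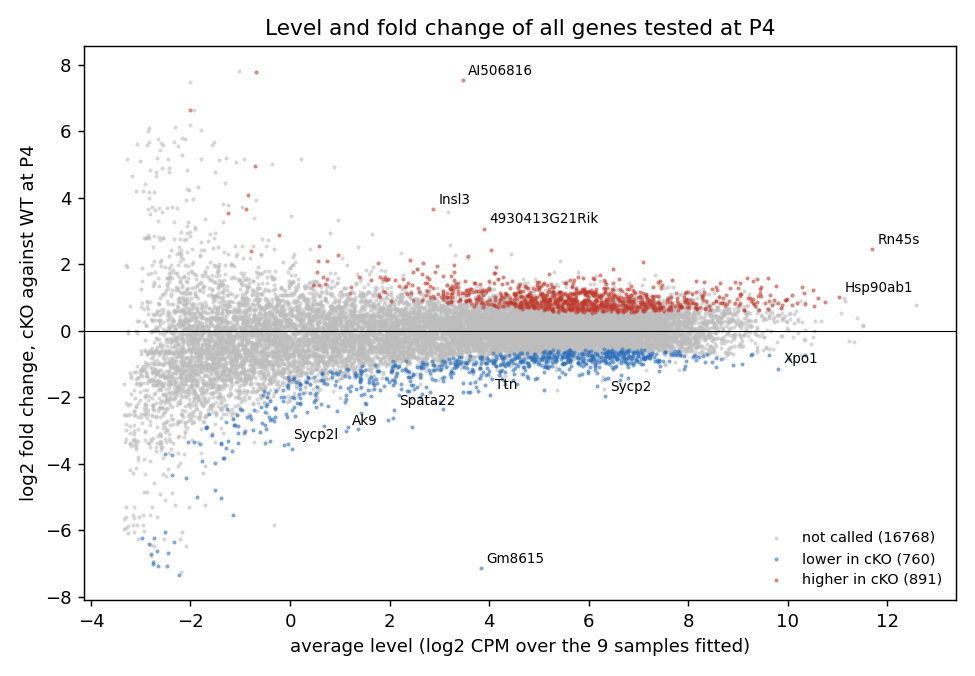
Each point is 1 of the 18419 genes tested, with its average log2 CPM over the 9 samples fitted on the x axis and the log2 fold change of cKO against WT at P4 on the y axis. Red points (891) rose, blue points (760) fell and grey points did not pass; the named points include the long noncoding RNA AI506816 at 7.53 and the transcribed pseudogene Gm8615 at -7.15.

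The called genes differed in size and base composition. Genes that rose had a median exon length of 1848 bases and a median GC content of 55.1%, while genes that fell had 3881 bases and 44.7%. From the shortest quintile of genes to the longest, the share that rose went from 9.16% to 1.57% and the share that fell from 0.949% to 6.87%. From the quintile lowest in GC to the highest, the share that rose went from 0.659% to 11.3% and the share that fell from 9.25% to 0.687%. A fit with offsets for length and GC content in each library called 265 genes that rose and 336 that fell, of which 487 were shared with the calls without offsets. Values with these offsets stand beside the groups below, where a count with offsets covers the whole list and can include members that did not pass without them, and the part of length and GC content in single results was not tested.

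**Figure D2:**
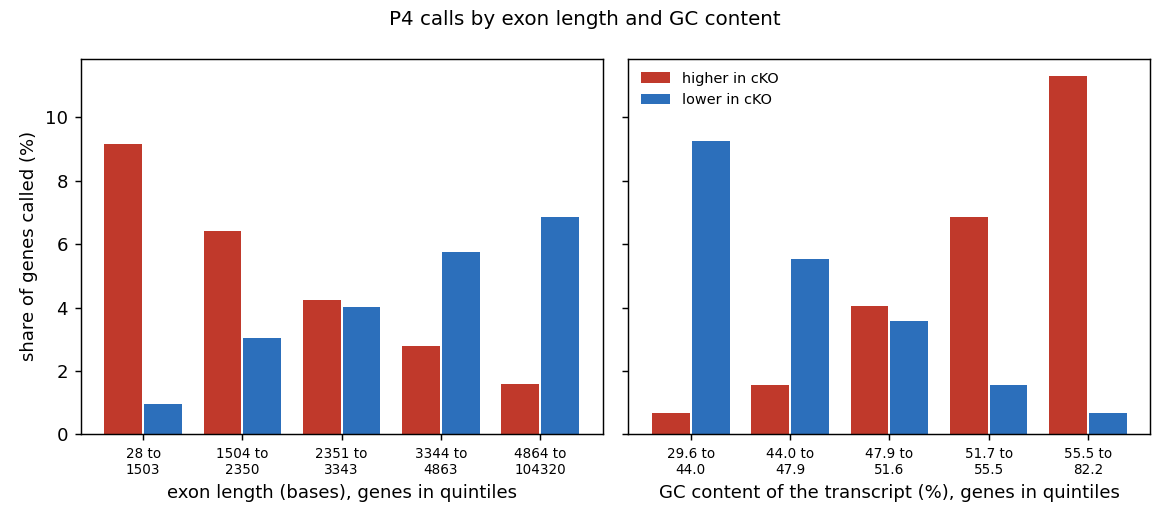
Bars give the share of tested genes called higher (red) or lower (blue) in cKO at P4, in percent, for genes in quintiles of exon length in bases (left) and of GC content in percent (right). The highest red bar, 11.3%, is the quintile richest in GC, and the highest blue bar, 9.25%, is the quintile poorest in GC.

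At AI506816 and Gm8615, loci with no named function, RNA was nearly absent from 1 genotype at P4. AI506816, a long noncoding RNA gene (chromosome 5, 23692261 to 23712667, GRCm38, minus strand), was at 0.199 and 0.147 CPM in WT and 33.1, 34.7 and 29.6 CPM in cKO. At P7 it had 21 and 13 reads in WT and 2, 31 and 16 in cKO, so the P4 cKO libraries, with 1145, 1013 and 1122 reads, were the 3 of 10 in which it was high. The log2 fold change at P4 was 7.53 (SE 0.67, edgeR adjusted p = 0.00163). Gm8615, a transcribed pseudogene (chromosome 5, 149154128 to 149156192, GRCm38, minus strand), was at 45 and 39.8 CPM in WT and 0.521, 0.205 and 0.158 CPM in cKO. At P7 the reads were 1088 and 1196 in WT and 40, 12 and 14 in cKO, so the genotypes were parted at both ages. Its log2 fold change was -7.15 (SE 0.57, adjusted p = 0.00163), and it passed in 18 of 18 alternative analyses. At 4930413G21Rik, also a long noncoding RNA gene, the gap was smaller: it was at 3.38 and 2.42 CPM in WT and 25.8, 20.3 and 26.8 CPM in cKO, with a log2 fold change of 3.07 (SE 0.33). It was named after its values were seen, as was Gm5084. Gm5084 was at 14.3 and 14 CPM in WT and 1.85, 2.12 and 1.74 CPM in cKO, with a log2 fold change of -2.89 (SE 0.27).

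Genes of meiotic prophase that passed the test were lower in cKO. Over 5 lists that together hold 64 tested genes, 17 fell and 0 rose, against 4.13% and 4.84% of all genes, and the median log2 fold change was -0.49. With length and GC offsets 11 fell and the median was -0.61. The Sertoli cell sum given above was higher in every cKO library, and its part in the germ line results was not tested.

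The machinery that makes meiotic DNA breaks had 5 of 10 genes that fell, with a median of -0.88. Spo11, the enzyme that cuts, was at 2.85 and 2.48 CPM in WT and 0.723, 0.753 and 0.606 CPM in cKO and had a log2 fold change of -1.94 (SE 0.30, adjusted p = 0.0122). Ankrd31, which places breaks, was at 9.56 and 9.20 CPM in WT and 4.86, 3.73 and 2.82 CPM in cKO. Zcwpw1, a reader of the histone marks at break sites, was at 80.6 and 55.3 CPM and 44, 37.2 and 34.2 CPM. In each of the 3 genes every cKO library lay below both WT libraries, as in all 760 genes that fell. With offsets 1 of the 10 passed, Spo11. Ccdc36 and Hormad1, which carry the break machinery on the chromosome axis, were the other two of the 5.

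Among 22 genes of strand exchange and crossover, 4 fell and the median was -0.44. Shoc1, which acts at crossover intermediates, was at 10.2 and 8.96 CPM in WT and 2.14, 1.61 and 1.84 CPM in cKO and fell by 2.35 (SE 0.24, adjusted p = 0.00275). Rnf212, a crossover ligase, was at 7.25 and 4.89 CPM in WT and 1.82, 1.99 and 1.34 CPM in cKO, and fell by 1.82 (SE 0.35, adjusted p = 0.0178). Spata22, which acts on single-stranded DNA, and Msh4, a crossover factor, fell as well, and all 4 passed with offsets.

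The synaptonemal complex, the zipper between paired chromosomes, and the meiotic cohesins had 6 of 16 genes that fell, with a median of -0.66. Sycp2, of its lateral elements, was at 75.6 and 61.5 CPM in WT and 22.1, 18 and 12.4 CPM in cKO. Its relative Sycp2l was at 3.81 and 1.92 CPM and 0.521, 0.171 and 0.105 CPM and fell by 3.41 (SE 0.59, adjusted p = 0.0147), the steepest fall on the list. Syce1, of the central element, was at 16.8 and 12.6 CPM in WT and 7.90, 7.53 and 5.48 CPM in cKO. With offsets 3 of the 6 passed, namely these 3, and Sycp1, the transverse filament, did not (-0.97, adjusted p = 0.0684). Upstream of these structures, 2 of 12 regulators of meiotic entry fell. Meioc, which keeps cells in meiotic prophase, was at 5.23 and 6.31 CPM in WT and 2.23, 2.40 and 3.48 CPM in cKO, and Taf7l, a germ cell subunit of the basal transcription machinery, at 44.6 and 47.8 CPM and 24.2, 26.4 and 28.1 CPM. Both also passed with offsets. Of 5 genes that attach meiotic telomeres 1 fell, Terb1. A further list, 15 germ cell genes that DNA methylation silences in other tissues, had 2 that fell, Taf7l and Syce1, and 2 that rose. With offsets 2 fell and 1 rose. The 2 that rose, Tuba3a (14.7 and 23.3 CPM in WT, 45.9, 35.1 and 34.7 CPM in cKO) and Tuba3b, code for near-identical tubulins, so reads could be split between them.

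The piRNA pathway, in which PIWI proteins and small RNAs silence transposons in germ cells, had 5 of 23 genes that fell and 0 that rose, with a median of -0.43. With offsets 4 fell, 3 of these 5 and 1 other. Mael, which acts in transposon silencing, was at 72.5 and 79.2 CPM in WT and 38.2, 39.1 and 37.3 CPM in cKO, with a narrow range in each group. Pnldc1, the exonuclease that trims piRNA ends, was at 44.7 and 38.5 CPM in WT and 22.8, 19.4 and 16.5 CPM in cKO and fell by 1.09 (SE 0.19, adjusted p = 0.0147). Tdrd9, a helicase of the pathway, was at 28.6 and 27.3 CPM in WT and 16, 14.6 and 12.3 CPM in cKO. Piwil1 and Tex15 were the other two. At P7 the log2 fold changes of Mael, Pnldc1, Tdrd9 and Piwil1 were 0.11, 0.44, 0.49 and 0.28. Tex15, the most abundant of the list, was lower at both ages, at -1.05 at P4 and -1.15 at P7 (edgeR adjusted p = 0.0236 at P7).

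Promoters of 3 of these germ line genes are printed to show an element that recurs in their lists. The E-box, searched as CACGTG on both strands in the 250 bases before the RefSeq start site (build GRCm38.p6), was found in 8 of the 18 piRNA genes with a promoter sequence, in 6 of 16 genes of the synaptonemal complex list and in 7.92% of 14325 promoters of tested genes. It stood in 7.90% of the promoters of all genes that fell and in 9.96% of those that rose, both near the background. The sequences run 5′ to 3′ toward the start site, with the E-box in capitals: Mael (chr1:166238745-166238994, minus strand) has 1 copy, and Tdrd9 (chr12:111971309-111971558, plus strand) and Hormad1 (chr3:95559427-95559676, plus strand) have 2 each.
Mael: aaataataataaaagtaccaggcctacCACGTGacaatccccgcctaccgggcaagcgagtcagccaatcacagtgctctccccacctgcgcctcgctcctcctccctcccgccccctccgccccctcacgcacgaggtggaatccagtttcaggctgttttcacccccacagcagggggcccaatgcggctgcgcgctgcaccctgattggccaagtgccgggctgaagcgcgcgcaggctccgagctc
Tdrd9: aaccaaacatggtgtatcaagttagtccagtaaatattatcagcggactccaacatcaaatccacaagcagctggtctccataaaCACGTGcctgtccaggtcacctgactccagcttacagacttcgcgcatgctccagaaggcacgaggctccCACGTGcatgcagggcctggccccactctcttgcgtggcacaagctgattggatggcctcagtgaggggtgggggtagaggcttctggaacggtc
Hormad1: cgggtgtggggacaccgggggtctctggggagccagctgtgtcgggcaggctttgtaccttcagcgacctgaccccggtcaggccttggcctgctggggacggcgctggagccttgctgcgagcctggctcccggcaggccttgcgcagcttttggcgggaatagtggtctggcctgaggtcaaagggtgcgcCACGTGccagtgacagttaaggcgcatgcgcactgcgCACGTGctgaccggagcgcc
A match describes these letters only, and binding was not measured.

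Few transcripts of later germ cell stages, which this age should lack, passed the test. The 20 spermatid markers summed to 269 and 202 RPM in WT and 186, 172 and 134 RPM in cKO, with 0 of 20 called by edgeR (7 at an unadjusted p under 0.05, 4 by DESeq2 and 1 by limma-voom) and a median of -0.84. All cKO libraries lay below both WT libraries for 11 of the 20 (55%) and above both for 2 (10%), against 25.6% and 24.1% of all genes. The 16 pachytene markers summed to 86.6 and 59.1 RPM in WT and 41.6, 52.3 and 35.3 RPM in cKO, with 1 called, Piwil1. Of the 16, 11 lay below both WT libraries in all cKO libraries (68.75%, against 25.6% of all genes). The part of these late transcripts in the meiotic and piRNA results was not tested. Of 83 genes of cilia and the sperm axoneme 7 fell (8.43%) and 0 rose, and the median was -0.50 (4 fell with offsets). Cfap43, which is needed for sperm flagella, was at 23.5 and 15.6 CPM in WT and 5.84, 7.33 and 6.35 CPM in cKO. Of 24 tested genes of the X-linked Rhox homeobox cluster 2 fell. Rhox10, the member that acts in spermatogonial stem cells, was at 4.04 and 3.54 CPM in WT and 1.13, 1.85 and 0.738 CPM in cKO and fell by 1.62 (SE 0.36, adjusted p = 0.0245).

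Genes that mark spermatogonia were not called more often than all genes, of which 4.84% rose and 4.13% fell. Of 26 genes of undifferentiated spermatogonia 1 fell (3.85%, near the share of all genes) and 0 rose, with a median of -0.07. The list of differentiating spermatogonia is short, so its count of 0 says little. The gene that fell was Taf4b, a transcription cofactor of the stem cell pool. Taf4b was at 31.2 and 39.6 CPM in WT and 20.9, 20.3 and 23.7 CPM in cKO (log2 -0.71, SE 0.17, adjusted p = 0.0309). With offsets Taf4b did not pass (-0.59, adjusted p = 0.0558), and 1 other member fell, Utf1. Gfra1, the receptor subunit for the niche factor GDNF, was at 9.33 and 16.4 CPM in WT and 19.6, 15.1 and 18.5 CPM in cKO, and the groups overlapped. Of 13 genes of differentiating spermatogonia 0 passed by edgeR's test (1 at an unadjusted p under 0.05, 1 by DESeq2 and 0 by limma-voom), with a median of 0.01. Kit, the receptor that marks them, was at 30.2 and 31.7 CPM in WT and 27.9, 26.2 and 23.1 CPM in cKO (log2 -0.26, SE 0.16, adjusted p = 0.276). Stra8, named in the genotype, was at 4.63 and 3.18 CPM in WT and 4.83, 5.85 and 3.56 CPM in cKO, with overlapping groups. In these bulk libraries fewer cells of a type and less RNA per cell cannot be told apart.

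**Figure D3:**
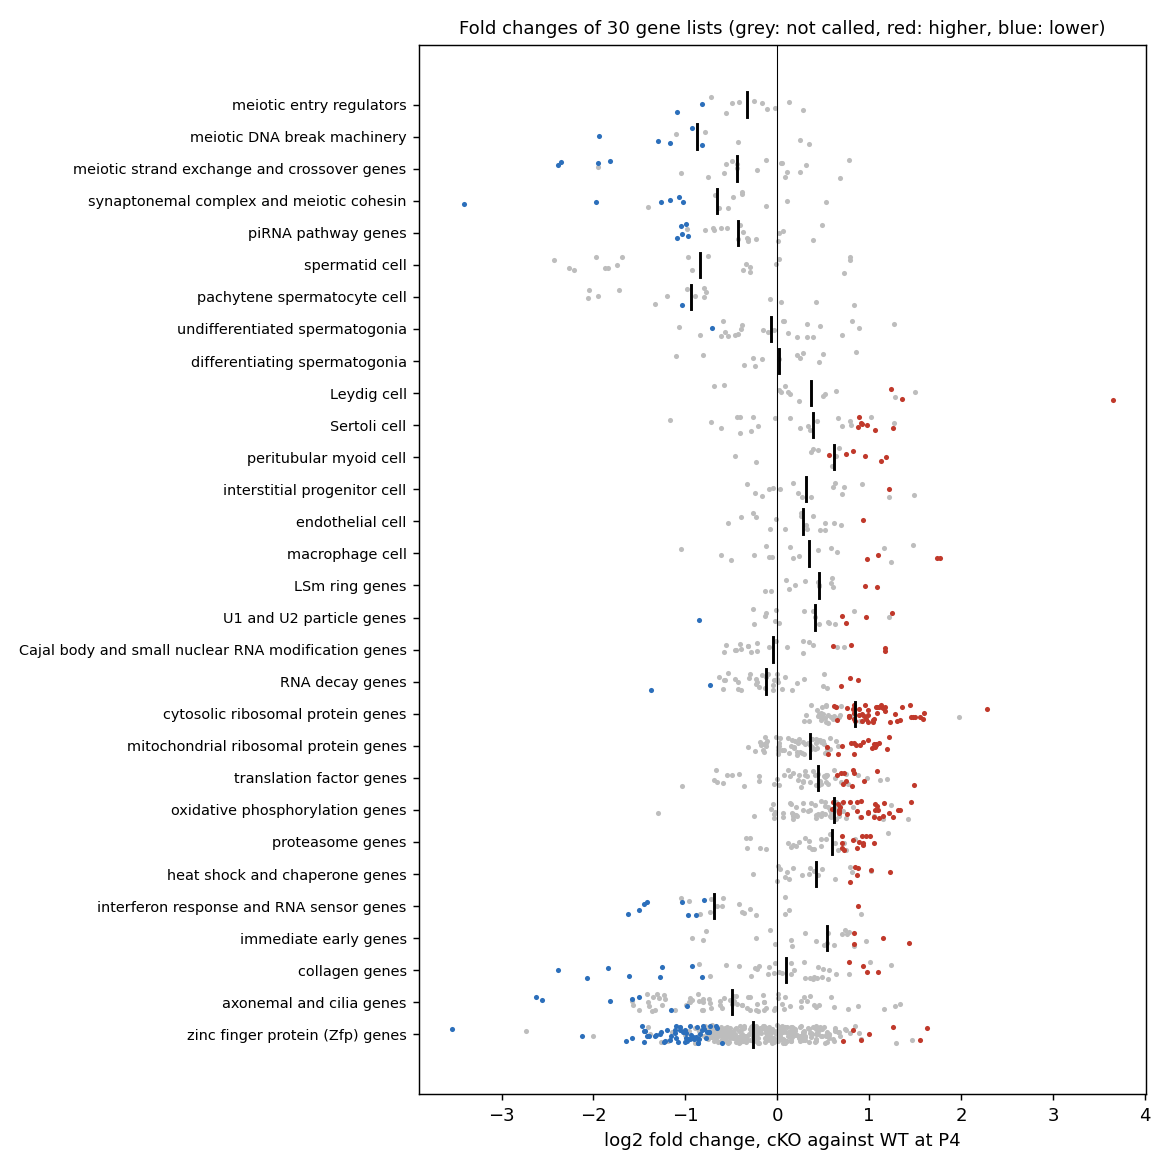
Each row is 1 gene list and each point a tested gene, with its log2 fold change of cKO against WT at P4 on the x axis; red points rose, blue points fell, grey points did not pass, and the black bar is the list's median. Medians run from -0.94 for the pachytene markers to 0.84 for the cytosolic ribosomal proteins, and the medians of both spermatogonial lists lie near 0.

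Markers of Leydig, Sertoli, peritubular myoid, interstitial progenitor, endothelial and macrophage cells that passed the test were higher in cKO. Of all genes 4.84% rose and 4.13% fell. The interstitial progenitor and endothelial lists, at 5.56% each, were near the share that rose. Of 16 Leydig cell genes 3 rose and 0 fell, and 2 of the 3, Star and Fdx1, passed with offsets. Star, which carries cholesterol into mitochondria, was at 41.3 and 39.3 CPM in WT and 78.6, 98.1 and 109 CPM in cKO. Fdx1, the electron donor of the steroid-making enzymes, was at 14.8 and 20.8 CPM in WT and 39.7, 46.4 and 50.3 CPM in cKO. The hormone gene Insl3, at 0.331 and 1.97 CPM in WT and 15, 15.7 and 13.4 CPM in cKO, also rose; it lies within the annotated span of Jak3 on the same strand, and Jak3 rose as well (6.19 and 4.63 CPM in WT, 35.1, 31.5 and 21.7 CPM in cKO), and reads of overlapping genes cannot be assigned here. Hsd17b3, of testosterone synthesis, stood on the other side, at 889 and 583 CPM in WT and 470.0, 480.4 and 419 CPM in cKO, which missed the threshold (adjusted p = 0.062) and passed with offsets (-0.93, adjusted p = 0.0469). The sum over 17 Leydig cell markers was 2731 and 2330 RPM in WT and 2432, 2557 and 2291 RPM in cKO, so the groups overlapped. Hsd17b3, the most abundant of the list, is part of this sum. Gene by gene, all cKO libraries lay above both WT libraries for 7 of the 16 tested (43.75%) and below both for 2 (12.5%). The shares over all genes were 24.1% and 25.6%.

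Sertoli cell genes rose in 7 of 28 cases, with a median of 0.39 and with 1 left under offsets, Sox9. Nr0b1, a nuclear receptor of Sertoli and Leydig cells, was at 25.4 and 27.4 CPM in WT and 42.7, 51.1 and 54.7 CPM in cKO, a log2 fold change of 0.91 (SE 0.18, adjusted p = 0.0191). Tesc, a calcium-binding protein of the early testis, was at 62.1 and 71.5 CPM in WT and 157, 174 and 148 CPM in cKO. Amh, the hormone of immature Sertoli cells, was at 514 and 597 CPM in WT and 1197, 961 and 914 CPM in cKO; its value was 0.29 with offsets (adjusted p = 0.353). Sox9, the Sertoli cell determinant, was at 32.5 and 51.9 CPM in WT and 84.9, 85.1 and 94.4 CPM in cKO, and its log2 fold change was 1.06 at P4 and -0.82 at P7. All cKO libraries lay above both WT libraries for 14 of the 28 genes (50%) and below both for 6 (21.4%). Over all genes these shares were 24.1% and 25.6%. The lowest fold change was that of Rhox8, a homeobox gene of Sertoli cells, at 335 and 196 CPM in WT and 114, 121 and 120.4 CPM in cKO (log2 -1.16, SE 0.40, adjusted p = 0.0878). A fit of the P4 libraries alone called 12 of the 28 higher and 3 lower, Rhox8 among the 3 (adjusted p = 0.00693).

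Peritubular myoid cell genes, most of them of the contractile apparatus, rose in 6 of 14 cases with a median of 0.62 (1 with offsets). Cnn1, a calponin, was at 7.88 and 11.3 CPM in WT and 19, 25.1 and 21.3 CPM in cKO and remained with offsets. Myl9, a myosin light chain, was at 176 and 202 CPM in WT and 317, 356 and 329.7 CPM in cKO. Acta2, the smooth muscle actin and the most abundant of the list, was at 509 and 549.8 CPM in WT and 662, 705 and 686 CPM in cKO and did not pass (adjusted p = 0.155), though the groups did not overlap. Among 18 interstitial progenitor genes 1 rose, Nes, an intermediate filament gene of stem Leydig and perivascular cells, at 22 and 26.6 CPM in WT and 53.4, 54.5 and 61.2 CPM in cKO. Its log2 fold change was 1.21 (SE 0.20, adjusted p = 0.0129). Of 18 endothelial genes 1 rose, the tight junction gene Cldn5, and 0 with offsets.

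Macrophage genes rose in 4 of 20 cases (0 with offsets): the complement genes C1qa and C1qb, the lysozyme gene Lyz2 and the protease gene Ctss. C1qa was at 6.16 and 6.37 CPM in WT and 12, 14.4 and 13.9 CPM in cKO. Mrc1, the mannose receptor and the most abundant of the list, was at 25.8 and 22.3 CPM in WT and 14.8, 18.7 and 17.3 CPM in cKO, lower in all 3 cKO libraries, and did not pass (log2 -0.50, SE 0.21, adjusted p = 0.136). The list summed to 145 and 146 RPM in WT and 135, 195 and 207 RPM in cKO, where cKO library 1 lay below WT. Of 15 lymphocyte and mast cell genes 0 passed by edgeR's test (2 at an unadjusted p under 0.05, 0 by DESeq2 and 0 by limma-voom), and of 8 tested red blood cell genes 0 passed (1 at an unadjusted p under 0.05, 0 by DESeq2 and 0 by limma-voom). Of 12 fat and skeletal muscle genes 1 rose, Plin1, a coat protein of lipid droplets, at 4.14 and 5.98 CPM in WT and 9.43, 13.9 and 11.6 CPM in cKO, and of 14 duct epithelium genes 1 fell, the chloride channel gene Cftr. With offsets Plin1 did not pass (adjusted p = 0.0669) and Cftr did. Growth factor genes of the soma were also among the called. Of 16 genes of the insulin-like growth factor system 4 rose, among them 2 binding proteins that passed with offsets. Igfbp6 was at 46.2 and 50.1 CPM in WT and 104, 113 and 125 CPM in cKO (log2 1.25, SE 0.16, adjusted p = 0.0104), and Igfbp4 at 226 and 309 CPM and 490.1, 716 and 714 CPM. Of 23 niche ligands and receptors 1 rose, Wnt6 (4.35%, near the 4.84% of all genes), and 0 with offsets.

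**Figure D4:**
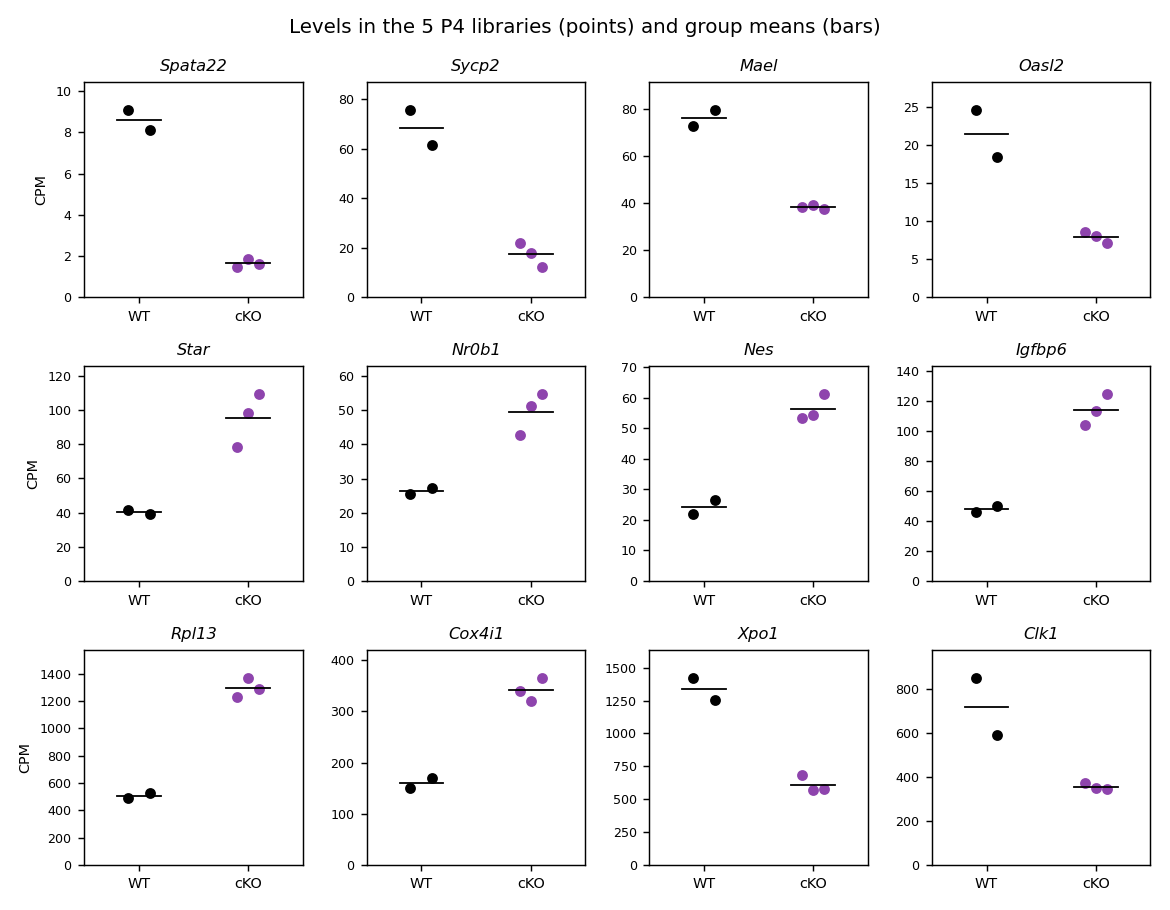
Points are the levels of 12 genes in CPM in the 2 WT (black) and 3 cKO (purple) libraries at P4, each panel with its own axis from 0, and bars are group means. Spata22, Sycp2, Mael, Oasl2, Xpo1 and Clk1 are lower in all 3 cKO libraries, and Star, Nr0b1, Nes, Igfbp6, Rpl13 and Cox4i1 are higher in all 3.

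Collagen genes went both ways. Of 44 genes 8 fell and 4 rose, and with offsets 5 fell and 0 rose. Col2a1, of cartilage, was at 31.8 and 19.5 CPM in WT and 7.23, 8.87 and 5.40 CPM in cKO and fell by 1.84 (SE 0.29, adjusted p = 0.0122), with a log2 fold change of 1.99 at P7. Col22a1, of tissue junctions, was at 28.9 and 20.3 CPM in WT and 7.26, 11.1 and 5.85 CPM in cKO. Col24a1 was at 19.7 and 18.6 CPM in WT and 7.35, 8.76 and 7.59 CPM in cKO.

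Genes of the splicing machinery itself, with which LSM7 works, passed the test in 1 to 5 cases per list, most of them as rises, against 4.84% of all genes that rose. Of 14 genes with a present or former LSm name 2 rose (14.3%) and 0 fell (0 with offsets), with a median of 0.45. This list is wider than the ring that holds LSM7, so the share is not one of ring subunits. Naa38, once named an LSm gene, was at 9.13 and 10.4 CPM in WT and 21.7, 20.3 and 20.1 CPM in cKO, and Lsm4, a partner of LSM7 in the ring, was at 36.4 and 29.4 CPM and 69.8, 54.9 and 66.2 CPM. Of 8 genes of the Sm core, the ring on the other spliceosomal RNAs, 1 rose (12.5%; 0 with offsets). This was Snrpb, at 22.8 and 43.5 CPM in WT and 117, 99.2 and 145 CPM in cKO. Of 21 genes of the U1 and U2 particles 4 rose (19.05%) and 1 fell (1 rose with offsets). Sf3b5, a small subunit of the branch point complex, was at 30.5 and 33.4 CPM in WT and 60.3, 65.3 and 60.8 CPM in cKO and rose by 0.96 (SE 0.16, adjusted p = 0.0138). Sf3b1, the large subunit of the same complex, was at 1847 and 1443 CPM in WT and 986, 934 and 810.0 CPM in cKO and fell by 0.85 (SE 0.19, adjusted p = 0.0254; -0.69 with offsets, adjusted p = 0.079). Of 30 genes of the U4/U6.U5 particle and the catalytic steps 1 rose (3.33%), Prpf19, at 138 and 156 CPM in WT and 277, 239 and 276 CPM in cKO. Of 13 minor spliceosome genes 2 rose (15.4%; 0 with offsets), Snrnp25 and Snrnp35. Of 36 genes of SR proteins and hnRNPs, which bind pre-mRNA and steer splicing, 1 rose and 1 fell (2.78% each), with a median of 0.21. With offsets neither of these passed, 1 other rose, Srsf5, and 0 fell. Hnrnpa0, the one that rose, was at 275 and 388 CPM in WT and 545, 776 and 825 CPM in cKO, and Srsf11, the one that fell, was at 921 and 789 CPM and 607, 494 and 481 CPM.

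Genes of Cajal bodies and of small nuclear RNA modification, the subject of the series title, had a median of -0.05 over 24 tested, with 4 that rose, 0 that fell and 0 with offsets. Nhp2 and Nop10, of the particles that make pseudouridine, were among them. Nhp2 was at 24 and 36.8 CPM in WT and 63.6, 68.4 and 72.9 CPM in cKO. Fbl, the methyltransferase fibrillarin, was at 80.4 and 79.3 CPM in WT and 123, 140.3 and 153 CPM in cKO. Gemin7, of the complex that loads Sm rings, was the fourth. Of 73 tested genes for snoRNAs, scaRNAs and small nuclear RNAs 0 passed by edgeR's test (8 at an unadjusted p under 0.05, 4 by DESeq2 and 0 by limma-voom), and the protocol describes no step to keep small RNAs. Of 38 mRNA decay genes, the cytoplasmic side of LSm function, 3 rose (7.89%) and 2 fell (5.26%). These shares are near those of all genes, 4.84% and 4.13%. With offsets 5 decay genes rose, the 3 that rose without them and 2 others, and 0 fell. Pan3, of a deadenylase, was at 300.0 and 262 CPM in WT and 176, 169 and 161 CPM in cKO, and Upf3a, of nonsense-mediated decay, was at 56.5 and 57.5 CPM and 95.7, 113 and 106 CPM.

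The genes named next were among the 12 with the largest falls in CPM and form no functional list. Xpo1, the nuclear export receptor, was at 1421 and 1252 CPM in WT and 680.1, 568 and 576 CPM in cKO (adjusted p = 0.0147) and passed with offsets as well. Rbm39, a splicing cofactor, was at 1999 and 1616 CPM in WT and 1138, 1095 and 1052 CPM in cKO. Clk1, a kinase of SR proteins, was at 850.1 and 591 CPM in WT and 371, 351 and 343 CPM in cKO. Rbm25, Paxbp1 and Srsf11, which act in or near splicing, also fell, and none of these 5 passed with offsets (adjusted p from 0.0533 to 0.123). Socs2, a brake on growth hormone signals, was at 1205 and 869.8 CPM in WT and 569.8, 541 and 450.1 CPM in cKO and passed with offsets.

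A larger share of the ribosomal protein genes rose than of any other list described here. Of 78 cytosolic ribosomal protein genes 47 rose and 0 fell, with a median of 0.84, and in 77 of 78 all cKO libraries lay above both WT libraries, against 24.1% of all genes. With offsets 12 rose and the median was 0.53. Rpl13 was at 487 and 523 CPM in WT and 1227, 1369 and 1289 CPM in cKO and rose by 1.36 (SE 0.19, adjusted p = 0.0114). Rpl23a was at 838 and 968 CPM in WT and 1861, 2099 and 1938 CPM in cKO. Rplp0, of the ribosomal stalk, was at 602 and 848 CPM in WT and 1716, 1771 and 1988 CPM in cKO. These are short genes with many processed copies, so their counts are uncertain where reads match more than 1 place. The ribosomal RNA precursor Rn45s was at 937 and 759.8 CPM in WT and 3316, 6980.1 and 3715 CPM in cKO, highest in cKO library 2, and it is a multicopy sequence too. Beside the ribosome itself, 11 of 61 translation factor genes rose and 0 fell, 4 with offsets. Eef2, which moves the ribosome along, was at 703 and 969.8 CPM in WT and 1946, 1749 and 2136 CPM in cKO.

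An ETS site, searched as CCGGAAG on both strands, was found in 18 of the 56 ribosomal protein genes with a promoter sequence and in 11.3% of all promoters searched. Among all genes that rose the share was 12.1% and among all that fell 12.4%, both near the background. Of the 33 ribosomal protein genes that rose and had a promoter sequence, 7 held the site. The promoter of Rps10, a protein of the small subunit that rose, is printed with its site in capitals (chr17:27635245-27635494, minus strand).
Rps10: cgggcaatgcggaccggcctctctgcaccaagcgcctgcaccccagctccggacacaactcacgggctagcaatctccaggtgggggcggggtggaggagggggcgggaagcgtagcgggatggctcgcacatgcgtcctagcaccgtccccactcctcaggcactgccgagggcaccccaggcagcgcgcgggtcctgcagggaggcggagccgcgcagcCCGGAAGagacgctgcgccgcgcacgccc
Rps10 was at 239.9 and 294 CPM in WT and 555, 678 and 708 CPM in cKO, with a log2 fold change of 1.28 (SE 0.21).

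Mitochondrial genes encoded in the nucleus had larger shares of rises than the 4.84% of all genes, though most members did not pass. Of 78 mitochondrial ribosomal protein genes 19 rose (24.4%; 2 with offsets), with a median of 0.36. Mrps34 was at 15.6 and 15.7 CPM in WT and 37.4, 33.8 and 37.4 CPM in cKO. Of 84 genes of oxidative phosphorylation 29 rose (34.5%) and 0 fell (4 with offsets), with a median of 0.62. The rising genes were spread over the complexes: 13 of 37 in complex I, 2 of 4 in complex II, 3 of 9 in complex III, 5 of 17 in complex IV and 6 of 17 in complex V. Uqcrh, the hinge protein of complex III, was at 54.6 and 68.5 CPM in WT and 121, 152 and 168 CPM in cKO and passed with offsets. Cox4i1, of complex IV, was at 150.1 and 169 CPM in WT and 339.8, 319.9 and 365 CPM in cKO. Transcripts of the mitochondrial genome are not in the table used here.

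Protein turnover and folding genes that passed were higher as well. Of 38 proteasome genes 13 rose and 0 fell, 8 of 18 in the core and 5 of 20 in the cap, with a median of 0.60, and 0 passed with offsets. Psmb5, a catalytic subunit, was at 40.5 and 42 CPM in WT and 80.2, 75.1 and 80.8 CPM in cKO. Of 24 chaperone genes 6 rose, 2 with offsets. Hsp90ab1, the constitutive cytosolic HSP90, was at 1213 and 1649 CPM in WT and 2849.8, 2823 and 3009 CPM in cKO and rose by 1.02 (SE 0.21, adjusted p = 0.0223), and it passed with offsets. Of 21 glycolysis genes 2 rose, Tpi1 and Ldhb, and 0 with offsets. Of 34 cell cycle and replication genes 2 fell (5.88%, near the 4.13% of all genes) and 0 rose. With offsets 1 gene of the list fell, Ube2c, which is not among these 2. Cenpe, a motor of the kinetochore, was at 184 and 158 CPM in WT and 105, 97.5 and 83.1 CPM in cKO, and Bub1, of the spindle checkpoint, was at 114 and 103 CPM and 73, 71.8 and 71.9 CPM; neither passed with offsets.

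Of 376 tested zinc finger (Zfp) genes, 57 fell (15.2%) and 7 rose (1.86%), with a median of -0.27, and with offsets 14 fell and 5 rose. Most are repressors that bind DNA, many of them directed at transposons. Zfp677 was at 30.6 and 25.1 CPM in WT and 9.86, 10.5 and 10.5 CPM in cKO and fell by 1.44 (SE 0.22, adjusted p = 0.0116). Zfp963 was at 46.2 and 35.3 CPM in WT and 17.1, 15.1 and 11.9 CPM in cKO. Zfp628 went the other way, at 18.1 and 20.4 CPM in WT and 48.7, 44.2 and 45.4 CPM in cKO. All 3 passed with offsets.

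Most interferon response genes and sensors of foreign RNA that passed were lower: 8 of 26 fell, 1 rose and the median was -0.69 (4 fell and 0 rose with offsets). Oasl2, an antiviral gene of the oligoadenylate synthetase family, was at 24.6 and 18.5 CPM in WT and 8.56, 8.08 and 7.09 CPM in cKO and fell by 1.44 (SE 0.20, adjusted p = 0.0114). Ddx58, the sensor RIG-I, was at 26.6 and 26.9 CPM in WT and 13.9, 14.2 and 12.9 CPM in cKO. Oas2 was at 3.81 and 3.74 CPM in WT and 1.13, 1.16 and 1.37 CPM in cKO. The transcription factor genes Stat2 and Irf9, which carry the interferon signal, were among the 8. Bst2, which tethers budding virus, ran the other way, at 29.5 and 29.9 CPM in WT and 48.8, 55.5 and 60.1 CPM in cKO. At P7 the median of the list was -0.01.

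The promoters of Bst2, which rose, and Stat2, which fell, are printed because both hold the interferon-stimulated element, searched on both strands as GAAA, any 2 bases and GAAA again. It was found in 9 of the 19 interferon genes with a promoter sequence and in 2.54% of all promoters searched. Capitals mark it: 2 overlapping copies in Bst2 (chr8:71537473-71537722, minus strand) and 1 copy read on the opposite strand in Stat2 (chr10:128270248-128270497, plus strand).
Bst2: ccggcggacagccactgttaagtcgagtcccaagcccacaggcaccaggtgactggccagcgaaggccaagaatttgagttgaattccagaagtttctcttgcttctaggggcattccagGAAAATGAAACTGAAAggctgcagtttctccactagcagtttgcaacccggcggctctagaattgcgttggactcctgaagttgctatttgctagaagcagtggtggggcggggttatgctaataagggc
Stat2: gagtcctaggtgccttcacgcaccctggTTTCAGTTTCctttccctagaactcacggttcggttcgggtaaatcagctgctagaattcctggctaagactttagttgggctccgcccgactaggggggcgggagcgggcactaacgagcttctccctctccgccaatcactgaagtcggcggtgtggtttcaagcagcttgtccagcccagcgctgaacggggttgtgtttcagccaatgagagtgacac
Of the 6 called interferon genes with a promoter sequence, these 2 held the element. It stood in 3.03% of the promoters of all genes that rose and in 2.52% of those that fell, both near the background.

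Other stress programmes had 1 to 4 genes that rose and 0 that fell. Of 18 p53 target genes 1 rose (5.56%), Phlda3, a brake on AKT signals, at 17.1 and 21.2 CPM in WT and 47.6, 49 and 44.5 CPM in cKO. The integrated stress response, 18 genes, had 2 that rose (11.1%), 1 of them with offsets. Phgdh, of serine synthesis, was at 63.1 and 71.9 CPM in WT and 143, 127 and 136 CPM in cKO. Cebpb, a transcription factor, was at 9.40 and 6.90 CPM in WT and 28.1, 32.9 and 20.2 CPM in cKO. Of 24 immediate early genes 4 rose (16.7%); with offsets 2 rose, Ier5 of these 4 and 1 other. Ier5 was at 22.4 and 33.2 CPM in WT and 72.5, 78.2 and 74.2 CPM in cKO and rose by 1.43 (SE 0.27, adjusted p = 0.0168). Of 21 imprinted genes 2 fell, the noncoding RNAs Rian and Mirg of the same locus. With offsets 1 of the 2 fell, and Rian did not pass (-0.47, adjusted p = 0.17). Rian was at 1667 and 1292 CPM in WT and 917, 902 and 871 CPM in cKO, and Mirg was at 77.3 and 43.3 CPM and 25, 24 and 18.4 CPM.

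Several of the steepest changes among genes with an assigned symbol belonged to none of these lists. Ak9, an adenylate kinase, was at 3.44 and 3.71 CPM in WT and 0.521, 0.445 and 0.369 CPM in cKO (adjusted p = 0.00318). Gdap1, of the mitochondrial outer membrane, was at 5.83 and 4.60 CPM in WT and 0.578, 0.787 and 0.632 CPM in cKO. Nfasc, a cell adhesion gene of neurons, was at 8.11 and 7.16 CPM in WT and 1.79, 1.81 and 2.13 CPM in cKO. Each of these 3 passed with offsets. On the rising side, Itm2c, a membrane protein that binds amyloid precursor, was at 40.7 and 79.5 CPM in WT and 239, 193 and 321 CPM in cKO and rose by 2.06 (SE 0.39, adjusted p = 0.0198). Fstl3, an inhibitor of activin, was at 1.72 and 2.83 CPM in WT and 9.11, 5.58 and 10.3 CPM in cKO, and Dusp9, a phosphatase of MAP kinases, was at 2.65 and 4.42 CPM and 15.2, 10.3 and 15 CPM. Itm2c and Dusp9 passed with offsets, and Fstl3 did not (1.59, adjusted p = 0.063).

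The P7 libraries share no sample with P4, and the 2 WT libraries among them were so alike that they were counted as 1 sample. Both ages were tested in the same fit with a shared estimate of spread for each gene. Calls at P4 and P7 are therefore not independent, and the shared calls below are no separate replication. Of the 891 genes that rose at P4, 828 (92.9%) had a positive fold change at P7 and 329 also rose there, where 7.26% of all genes did. Of the 760 that fell, 575 (75.7%) were negative at P7 and 221 also fell there, where 9.72% of all genes did. Over all genes tested 55.6% had the same sign at both ages. The median of the rising genes was 0.93 at P4 and 0.73 at P7, and that of the falling genes was -1.01 and -0.53. By list, the ribosomal protein median was 0.84 at P4 and 0.88 at P7, the meiotic median -0.49 and -0.29, the piRNA median -0.43 and 0.16, and the Sertoli cell median 0.39 and -0.05. The difference between the ages, tested as an interaction in edgeR, passed for 0 genes (4619 at an unadjusted p under 0.05, smallest adjusted p = 0.0626), while DESeq2 called 1683 and limma-voom 0. So no gene is said here to differ between the ages.

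**Figure D5:**
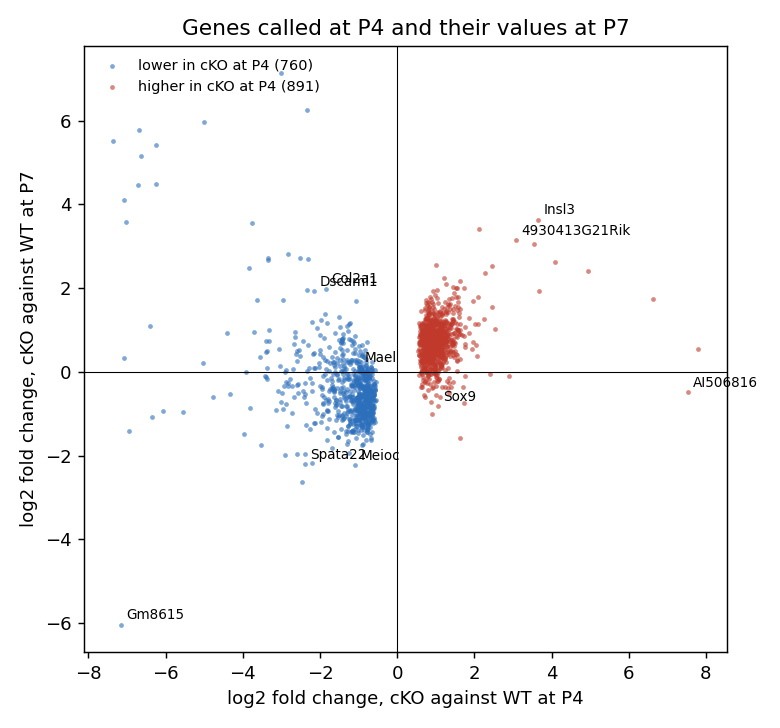
Each point is a gene called at P4 (red rose, 891; blue fell, 760), with its log2 fold change of cKO against WT at P4 on the x axis and at P7 on the y axis. Of the red points 92.9% lie above 0 at P7, and of the blue points 75.7% lie below 0; Gm8615 is low at both ages and AI506816 is near 0 at P7.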

How the data were processed

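The authors deposited 1 table of raw read counts per gene for the 10 libraries, in featureCounts layout per the file headers. The submitters' processing notes name, in no order, STAR 2.7.11a, Trim Galore 0.6.10, featureCounts and Subread 2.0.6, and the builds GRCm38 and mm10. How strand, multimapping reads and mates were counted is not given in the sources used here, so counts of multicopy and overlapping genes are uncertain. Low counts (under 50) were even numbers in 69.7% to 78.8% of cases at P4, as when both mates are counted.

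The filter filterByExpr kept 18419 of 25239 genes, which were normalized by TMM and tested by edgeR 4.0.16 under R 4.3.3 (robust quasi-likelihood, two-sided, 1 mean per group). The pair of P7 WT libraries agreed nearly within counting noise (1.98 chi-square per degree of freedom, while pairs within the P4 groups had 37.3 to 71.1) and was summed, which left 9 samples and 5 residual degrees of freedom. In simulated data 39 of 100 genes changed by a log2 of 1 and 95 of 100 changed by 2 were recovered, with 8 false calls of 142. The simulation changed only these genes, none of low level, drew counts independently and held no trend with length or GC content. Its false calls are therefore no error rate for the real calls. Alternatives used DESeq2 1.42.0, limma 3.58.1, other scalings, filters, samples and offsets.

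The comparison and its 53 gene lists were chosen with earlier results of these data known. Named genes were the 15 highest and 15 lowest fold changes, the 12 largest rises and falls in CPM, up to 4 called members and the most abundant member of each list, the 2 most extreme unassigned loci per direction, and a few genes fixed by name. Outside this rule, 4930413G21Rik, Gm5084 and Irf9 were chosen after their values were seen, and Rps10 and Stat2 for their promoters. Promoter sequences are from RefSeq. The result of 1 gene list is not reported here.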

Additional observations from a re-analysis of the deposited data

How the results depend on the processing

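Against 891 genes that rose, 760 that fell and 0 with an interaction, the counts under other settings were as follows. All 10 libraries as separate samples gave 1482, 1413 and 3105, DESeq2 gave 1549, 1433 and 1683, and the P4 libraries alone gave 1687 and 1542. Offsets gave 265, 336 and 1, library totals 528, 1544 and 3, and no filter left the first 2 counts within 1.5 times and gave 431 interactions. Leaving out 1 library gave 0 to 2241, 2 to 1916 and 0 to 1455. RLE factors, a minimum count of 50 and limma-voom kept all 3 counts within 1.5 times.

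The replicate block, the number in the titles, gave 1496, 1236 and 4311, beside 1482, 1413 and 3105 for the same 10 libraries without it. Deviations of same-numbered P4 libraries correlated at 0.115 and -0.0739. With 2 WT libraries the deviations of one mirror those of the other, and WT library 2 gave -0.115 with cKO library 1. This check therefore cannot tell whether same-numbered libraries share a litter or batch.

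Of 124 genes named in the text, 115 passed. Of these 115, 59 passed with offsets, 108 with library totals, 2 without WT library 1, 75 without WT library 2, and 76, 8 and 8 without cKO libraries 1, 2 and 3, and none changed sign in any alternative. The P4 libraries held 28.8 to 41.8 M reads, and how depth or the number of libraries limits the calls was not tested.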

Other observations

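Several further groups held 1 or 2 called genes, where 4.84% of all genes rose and 4.13% fell. Of 24 genes of cholesterol synthesis and uptake 1 fell (4.17%, near the share of all genes). This was Lss, which closes the sterol rings, at 63.6 and 59.2 CPM in WT and 37.9, 35.1 and 37.9 CPM in cKO. Among 23 genes of junctions and basement membranes 2 rose (8.70%), Cldn5 and Nectin2. With offsets 2 rose, 1 of these and Lama2. Nectin2, an adhesion protein of Sertoli cell contacts, was at 81.3 and 92.1 CPM in WT and 176, 165 and 167 CPM in cKO and rose by 0.96 on the log2 scale (SE 0.15, edgeR adjusted p = 0.0122). Cftr, a chloride channel on the list of duct epithelium, was at 11.4 and 7.84 CPM in WT and 3.36, 2.26 and 2.48 CPM in cKO and fell by 1.83 (SE 0.26, adjusted p = 0.0114). Of 53 tested genes for replication-dependent histones 1 rose (1.89%, below the share of all genes). This was H1f2, a linker histone, at 1.42 and 3.60 CPM in WT and 7.03, 12.6 and 11.2 CPM in cKO. With offsets H1f2 did not pass (1.57, adjusted p = 0.0613).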
